A study of Mus musculus with 6 samples.

Results

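The 10 genes described here run the calcium stores of the muscle cell and the calcium entry that refills them: the store pumps Atp2a2 and Atp2a3, the pump inhibitor Pln, the IP3 receptors Itpr1, Itpr2 and Itpr3, the ryanodine receptors Ryr2 and Ryr3, the store sensor Stim1 and the entry channel Orai1. They were taken by gene symbol, as a set of known function, from the 55055 genes in the deposited table, and each symbol matched 1 row. RNA-seq was done on the myometrium, the muscular wall of the uterus, from pregnant Tcf23 knockout mice made with CRISPR/Cas9 (KO) and from pregnant wild-type mice (WT), with 3 animals per genotype and 1 library per animal. All animals were labelled E19.5, and the series design states gestational day 19; the sources used here do not give the strain, the maternal age or the deleted bases. Tcf23 codes for a protein of the basic helix-loop-helix family, and the study asked about its part in contraction of this muscle. The knockout is not stated to be limited to 1 cell type, and a piece of myometrium also holds vessels, connective tissue and, by its markers, some epithelium.

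In smooth muscle, SERCA pumps load calcium into the endoplasmic reticulum, and phospholamban, the product of Pln, slows the pump. Hormones that contract the uterus act through phospholipase C and IP3, which opens IP3 receptors and releases the stored calcium, while ryanodine receptors release it in response to calcium itself. When the store empties, STIM1 in its membrane senses the loss and opens ORAI1 in the plasma membrane, which is store-operated entry.

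None of the 10 genes differed between the genotypes past the threshold. Each had enough counts to be tested. In edgeR's quasi-likelihood test with Benjamini-Hochberg adjustment over all genes, 0 of 10 had an adjusted p under 0.05, 0 of 10 had an unadjusted p under 0.05, and DESeq2 on the same counts also called 0 of 10 at an adjusted p under 0.05. Over all 19599 genes tested, edgeR called 4 (0.0204%), or 7 with the replicate number as a block, and 8.56% had an unadjusted p under 0.05. DESeq2 called 380 of 20151 genes (1.89%). Its unadjusted p was under 0.05 for 2 of the 10 genes, Pln (0.0103) and Ryr2 (0.0494). Over all 35229 genes fitted by DESeq2 this held for 2010. KO and WT values overlapped for each of the 10 genes, where 14.2% of all genes had groups that did not overlap. Of the 10 log2 changes 6 were positive and 4 negative, with a median of 0.13, against 52.1% positive and a median of 0.01 over all genes. Levels are given below as CPM, the counts of a gene scaled to the size of its library after TMM correction for composition. A p that misses the threshold does not show that a gene was the same in both genotypes, so the 95% interval of each difference is given below.

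**Figure D1:**
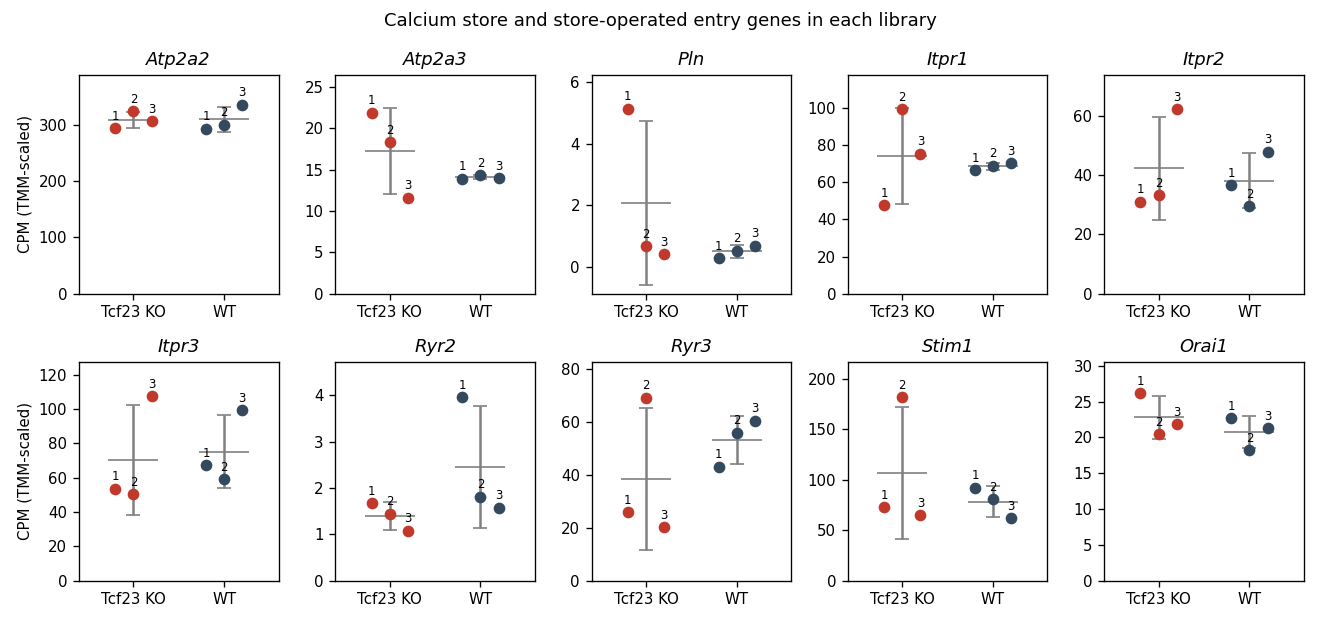
TMM-scaled CPM of each gene on linear axes, with KO left and WT right. Points are single libraries with their replicate number, and the grey bar and whiskers are the mean and SD of 3 libraries; KO and WT points overlap in every panel, and single KO libraries stand above the rest for Pln (replicate 1, 5.13 CPM) and Stim1 (replicate 2, 182 CPM).

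The genotype labels matched the targeted gene. Tcf23 had 0, 2 and 1 counts in KO replicates 1, 2 and 3, against 4203, 5970 and 3360 counts in WT replicates 1, 2 and 3 (log2 −12.03 ± 0.52 SE, edgeR adjusted p = 0.000637). Total counts per library ran from 39939686 to 65036402 in KO and from 47345181 to 55236312 in WT. The libraries differed in the sums of cell type markers. The 12 smooth muscle markers, all counted in every library, summed to 16963 to 42463 CPM in KO and 29735 to 35202 CPM in WT, with KO replicate 3 the lowest. The 6 uterine epithelium markers summed to 627 to 3164 CPM in KO and 1088 to 2391 CPM in WT. Trophoblast markers summed to 0.61 to 259 CPM in KO, where replicate 1 was the highest, and 18.6 to 35.8 CPM in WT. Fibroblast markers summed to 9340 to 11792 CPM in KO and 9341 to 15115 CPM in WT. Of these 5 markers, 4 had negative log2 changes and 1, Col1a1, a positive one (median −0.39). For 2 of them, Dcn and Lum, every KO library was below every WT library, which held for 7.01% of all genes. In such bulk tissue, fewer cells of a type and less RNA per cell cannot be told apart.

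Set on a common scale of CPM per kilobase of merged exons, Atp2a2 stood far above the rest. Its level per kilobase was 50.8 ± 2.46 in KO and 51.0 ± 3.74 in WT (mean ± SD, n = 3 each). Orai1, Stim1 and Itpr3 followed with means over the 6 libraries of 9.50, 8.90 and 8.08 CPM per kilobase, and the libraries' ranges of these neighbours overlapped. Itpr1 came next at 3.89, then Atp2a3 at 2.97, Itpr2 at 2.71 and Ryr3 at 2.41 CPM per kilobase, again with overlapping ranges from one to the next. The range of Itpr3 lay above that of Itpr1 without overlap, as did the range of Atp2a2 above that of Orai1. Pln at 0.469 and Ryr2 at 0.0667 CPM per kilobase were the lowest, and their ranges touched those of the genes above them through KO replicate 1 for Pln and WT replicate 1 for Ryr2. Merged exons count every annotated exon, so the level of a gene with many rarely used exons is understated on this scale.

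**Figure D2:**
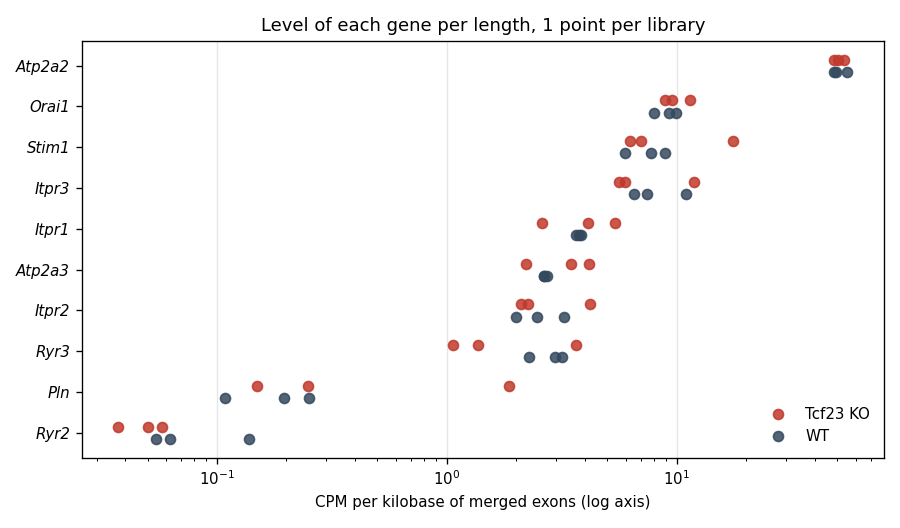
Level of each gene in CPM per kilobase of merged exons on a log axis, with genes in order of their mean and 1 point per library (KO row above WT row). Atp2a2 lies near 50 in all 6 libraries, and Ryr2 lies at 0.0373 to 0.138.

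The main store pump varied little between libraries in both genotypes. Atp2a2 encodes SERCA2, whose splice form SERCA2b is the usual pump of smooth muscle stores; the counts here do not separate splice forms. The gene (ENSMUSG00000029467, chr5:122453514-122502225 in mm10, minus strand) had 295, 324 and 307 CPM in KO replicates 1, 2 and 3 and 294, 300.5 and 336 CPM in WT replicates 1, 2 and 3. The lowest and the highest of all 6 values both came from WT libraries, so the KO values lay inside the WT range. The log2 change was −0.01 ± 0.14 SE (edgeR adjusted p = 0.997). Its 95% interval of −0.32 to 0.31 corresponds to a fold of 0.799 to 1.24. The highest KO library exceeded the lowest by 1.10-fold and the highest WT library by 1.14-fold, where Atp2a3 and Itpr1 were more even in WT, against medians of 1.45-fold in KO and 1.20-fold in WT for all genes with a mean of at least 1 CPM. These values stand beside a KO replicate 3 whose smooth muscle marker sum was 16963 CPM. Per unit of those markers, Atp2a2 was highest in that library, and the KO minus WT difference of the log2 ratio was 0.13 (exact two-sided permutation p = 1, where 3 against 3 allows no p below 0.1).

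The second pump gene, Atp2a3, was a minor part of the pump transcripts. It encodes SERCA3, known from blood cells, endothelium and epithelium (ENSMUSG00000020788, chr11:72961169-72993044, plus strand). The gene had 21.9, 18.3 and 11.6 CPM in KO replicates 1, 2 and 3, against 13.9, 14.4 and 14.0 CPM in WT replicates 1, 2 and 3. KO replicates 1 and 2 were above all WT libraries and KO replicate 3 was below them, and WT values were within 1.03-fold of each other. The log2 change was 0.30 ± 0.23 SE (95% interval −0.23 to 0.82, edgeR adjusted p = 0.822). Without KO replicate 3 it was 0.51, and without KO replicate 1 it was 0.10, with adjusted p of 0.335 and 0.91 in edgeR. The log2 ratio of Atp2a3 to Atp2a2 was −4.21 ± 0.49 in KO and −4.46 ± 0.11 in WT (mean ± SD, n = 3 each, difference 0.25, exact permutation p = 0.5). Over the 6 libraries the log2 value of Atp2a3 had r = 0.75 with the smooth muscle sum, 0.74 with the striated muscle sum and 0.72 with the trophoblast sum. It had r = 0.54 with the endothelial sum, −0.47 with the epithelial sum and −0.33 with the fibroblast sum. With the white blood cell sum r was −0.24. Of the 8 markers in that list 7 were tested, and 7 had positive log2 changes (median 1.02). For 4 of them every KO library was above every WT library, which held for 7.22% of all genes. Among these 4, Cd3e, Cd79a and Nkg7 were low, with 2.38 CPM at most. The other was Csf3r, with 13.9, 14.2 and 12.1 CPM in KO replicates 1, 2 and 3. It had 6.13, 8.34 and 5.32 CPM in WT replicates 1, 2 and 3 (log2 1.02 ± 0.20 SE, edgeR adjusted p = 0.228). The more abundant Ptprc, Itgam and Adgre1 had log2 changes of 0.17, 0.04 and 0.07, with overlapping groups. The sum of 157 to 206 CPM in KO overlapped that of 139 to 207 CPM in WT. The part of these cells in the Atp2a3 value was not tested. Per kilobase, Atp2a2 made up 94.0% of the 3 SERCA genes, Atp2a3 5.49% and Atp2a1, the skeletal muscle pump, 0.48%.

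Pln was nearly silent except in 1 library. Phospholamban is best known from heart muscle, where it holds the pump back until it is phosphorylated. The gene (ENSMUSG00000038583, chr10:53337667-53345987, plus strand) had 330, 38 and 17 counts in KO replicates 1, 2 and 3, which is 5.13, 0.685 and 0.415 CPM. WT replicates 1, 2 and 3 had 14, 28 and 39 counts, or 0.300, 0.540 and 0.696 CPM. KO replicates 2 and 3 lay within the WT range and KO replicate 1 lay above it. The fitted log2 change of 2.02 ± 0.92 SE (95% interval −0.14 to 4.18, edgeR adjusted p = 0.611) rested on that library, since it was 0.11 without it (edgeR adjusted p = 0.954). With the replicate number as a block the log2 change was 1.17, a fold of 2.25 in place of 4.06 (edgeR adjusted p = 0.752).

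The library with the high Pln value stood apart in other markers too. Trophoblast markers summed to 259 CPM in KO replicate 1, against 8.51 and 0.61 CPM in KO replicates 2 and 3 and 18.6 to 35.8 CPM in WT. Markers of striated muscle summed to 68.1 CPM there, against 22.5 and 22.8 CPM in KO replicates 2 and 3 and 17.1 to 27.8 CPM in WT. Of the 6 trophoblast markers 4 were counted in every library, and of the 12 striated muscle markers 7 were, with Myh4 at 0 in all 6 libraries. The fast troponin genes Tnnt3 and Tnni2 carried most of the striated sum in KO replicate 1, with 33.9 and 23.1 CPM. The heart troponin genes Tnnt2 and Tnni3 were also highest in that library, at 4.45 and 2.13 CPM, against 1.37 to 3.35 and 0.946 to 1.73 CPM in the other 5. Tnnt3 and Tnni3 were higher in each KO library than in any WT library. This held for 2 of the 6 tested striated markers and for 7.22% of all genes. The heart myosin genes Myh6 and Myh7 were at or near 0 in all 6 libraries, with 0.0541 CPM at most. Of the trophoblast sum in KO replicate 1, Tpbpa alone made up 244 CPM; Prl3b1 and Psg17 were higher in a WT library than there. The part of such cells in the Pln value was not tested. The antisense gene Gm47644, which shares 1644 exon bases with Pln, had 63, 14 and 17 counts in KO replicates 1, 2 and 3 and 12, 17 and 9 counts in WT replicates 1, 2 and 3. Cep85l, within which Pln lies on the other strand, had 14.7 CPM in KO replicate 1, at the low end of its 14.7 to 29.3 CPM. The libraries were directional, but reads of overlapping genes can only be told apart if the counting also used strand, and the sources used here do not say so. The log2 ratio of Pln to Atp2a2, inhibitor to pump, was −5.84, −8.89 and −9.53 in KO replicates 1, 2 and 3 and −9.93, −9.12 and −8.92 in WT replicates 1, 2 and 3 (difference 1.24, exact permutation p = 0.4). Sln, the gene of the related inhibitor sarcolipin, had 3 counts in all 6 libraries together; it is named to complete the family, after its values were seen.

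**Figure D3:**
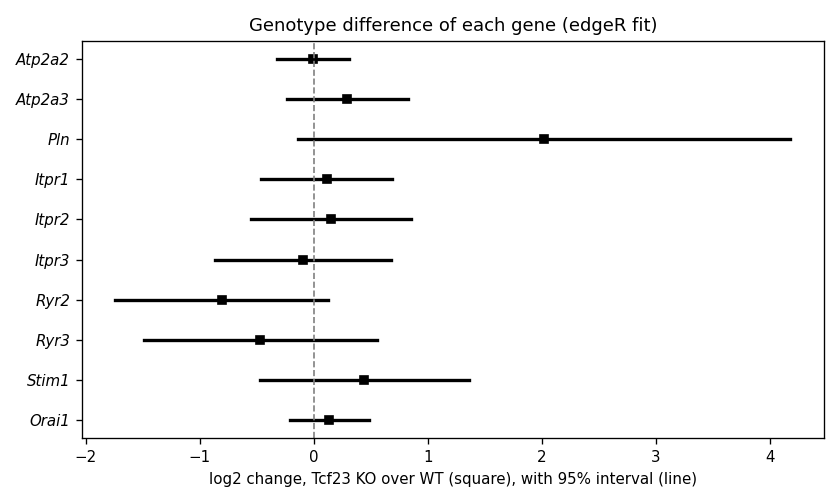
Log2 change of each gene, KO over WT, as a square with its 95% interval as a line, from the edgeR fit over all genes. Each of the 10 intervals includes 0; that of Atp2a2 is narrow (−0.32 to 0.31) and that of Pln wide (−0.14 to 4.18).

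The 3 IP3 receptor genes had no shared direction. Itpr1, the subtype usually named as the main one in smooth muscle and neurons (ENSMUSG00000030102, chr6:108213096-108551109, plus strand), had 47.8, 99.1 and 75.3 CPM in KO replicates 1, 2 and 3. WT replicates 1, 2 and 3 had 66.6, 68.8 and 70.2 CPM. The WT libraries were within 1.05-fold of each other, while the KO libraries spread over 2.08-fold to both sides of them. The log2 change was 0.11 ± 0.25 SE (95% interval −0.46 to 0.69, edgeR adjusted p = 0.96). Its sign depended on 1 library, being −0.15 without KO replicate 2 and 0.35 without KO replicate 1.

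Itpr2 and Itpr3 were both highest in replicate 3 of each genotype. Itpr2 (ENSMUSG00000030287, chr6:146108299-146502178, minus strand) is widely expressed and the most sensitive of the 3 receptors to IP3. It had 31.1, 33.3 and 62.4 CPM in KO replicates 1, 2 and 3 and 36.7, 29.5 and 47.9 CPM in WT replicates 1, 2 and 3. Itpr3, the subtype prominent in secretory epithelium (ENSMUSG00000042644, chr17:27057304-27122223, plus strand), had 53.5, 50.4 and 107.6 CPM in KO replicates 1, 2 and 3 and 67.2, 59.0 and 99.5 CPM in WT replicates 1, 2 and 3. Between KO replicates 1 and 2 the order differed, with Itpr2 higher in replicate 2 and Itpr3 higher in replicate 1. Over the 6 libraries Pearson's r of the log2 values of Itpr2 and Itpr3 was 0.94, a description only, since the points share their libraries and tissue pieces. The log2 changes were 0.15 ± 0.30 SE for Itpr2 (95% interval −0.55 to 0.85, edgeR adjusted p = 0.957) and −0.09 ± 0.33 SE for Itpr3 (95% interval −0.87 to 0.68, edgeR adjusted p = 0.98). Without KO replicate 3 they were −0.24 and −0.54. The sign of Itpr2 was also negative without WT replicate 2 (−0.0058), and that of Itpr3 was positive without KO replicate 1 (0.077), KO replicate 2 (0.10) or WT replicate 3 (0.16).

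Epithelial markers moved with this pair, and smooth muscle markers moved against it. The epithelial sum was 1896, 627 and 3164 CPM in KO replicates 1, 2 and 3 and 1660, 1088 and 2391 CPM in WT replicates 1, 2 and 3, so replicate 3 was again the highest of each genotype. The smooth muscle sum was lowest in replicate 3 of each genotype, at 16963 CPM in KO and 29735 CPM in WT. Over 6 libraries the log2 value of Itpr3 had r = 0.81 with the epithelial sum and −0.87 with the smooth muscle sum, and Itpr2 had 0.73 and −0.90. With the endothelial sum r was −0.76 for Itpr3 and −0.73 for Itpr2. The part of these tissues in the levels of Itpr2 and Itpr3 was not tested. All 6 epithelial markers were counted in every library.

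Per kilobase, Itpr3 made up the largest share of IP3 receptor transcripts in each of the 6 libraries. Its share was 55.8%, 42.2% and 58.9% in KO replicates 1, 2 and 3 and 54.9%, 53.2% and 60.9% in WT replicates 1, 2 and 3. Itpr1 held 24.5%, 40.8% and 20.3% in KO and 26.8%, 30.5% and 21.2% in WT, in the same order. These shares depend on length, as Itpr1 has 18319 merged exon bases and Itpr3 has 9019. In CPM, Itpr1 was above Itpr3 in KO replicate 2 (99.1 against 50.4) and in WT replicate 2 (68.8 against 59.0). Itpr3 was above Itpr1 in the other libraries. The Itpr1 share averaged 28.5 ± 10.9% in KO and 26.2 ± 4.72% in WT (mean ± SD, n = 3 each), a difference of 2.38 percentage points (exact permutation p = 0.9). The difference was −3.78 points without KO replicate 2 and −0.124 points without WT replicate 3. KO replicate 2, the library with the lowest epithelial sum and the highest smooth muscle sum, had the highest Itpr1 share.

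Promoter windows are shown for Itpr2 and Itpr3, which varied together, and for Pln, which was near silent in 5 libraries. They come from RefSeq on GRCm38.p6, the assembly of mm10, which gave a window for 7 of the 10 genes. Each runs from 250 bases before the gene start to 50 bases after it, 5′ to 3′ on the gene's strand, with matches to the E-box CANNTG in capitals, a motif that many basic helix-loop-helix proteins bind. The windows are chr6:146502174-146502473 (minus strand) for Itpr2, chr17:27057054-27057353 (plus strand) for Itpr3 and chr10:53337436-53337735 (plus strand) for Pln.
Itpr2: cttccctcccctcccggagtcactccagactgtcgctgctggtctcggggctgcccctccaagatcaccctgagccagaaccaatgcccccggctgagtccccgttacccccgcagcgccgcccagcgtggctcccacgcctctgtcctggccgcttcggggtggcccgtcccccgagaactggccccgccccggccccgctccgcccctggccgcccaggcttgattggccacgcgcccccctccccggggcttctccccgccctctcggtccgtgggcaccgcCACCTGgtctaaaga
Itpr3: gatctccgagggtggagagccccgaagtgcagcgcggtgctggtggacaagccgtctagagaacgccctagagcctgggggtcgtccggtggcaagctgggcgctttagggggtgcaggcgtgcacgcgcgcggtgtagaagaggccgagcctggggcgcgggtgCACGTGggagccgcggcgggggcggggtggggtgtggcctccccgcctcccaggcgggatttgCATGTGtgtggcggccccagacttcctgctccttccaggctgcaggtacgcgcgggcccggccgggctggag
Pln: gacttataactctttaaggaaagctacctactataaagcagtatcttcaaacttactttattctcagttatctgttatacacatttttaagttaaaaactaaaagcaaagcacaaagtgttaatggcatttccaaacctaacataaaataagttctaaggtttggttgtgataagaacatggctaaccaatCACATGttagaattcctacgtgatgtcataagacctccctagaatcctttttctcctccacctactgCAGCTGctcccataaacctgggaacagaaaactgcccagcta
The 3 windows held 1, 2 and 2 E-boxes in the order printed, and 72.3% of 32851 RefSeq promoter windows held at least 1, so a match sets none of them apart. The palindrome CANNTG reads the same on both strands. The GC box GGGCGG, searched on both strands, was present 5 times in Itpr2, once in Itpr3 and not in Pln, against 35.7% of all windows with a match. Bases G and C made up 73.3% of the Itpr2 window and 72.3% of the Itpr3 window, but 36.0% of the Pln window (median of all windows 52.7%). The Pln window held 1 match to TATAAA on either strand, present in 13.6% of all windows, at position −219 from the start. No CArG box, the motif of serum response factor, was in any of the 7 windows (1.63% of all windows). A match to letters is not a binding site, and no binding was measured here.

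**Figure D4:**
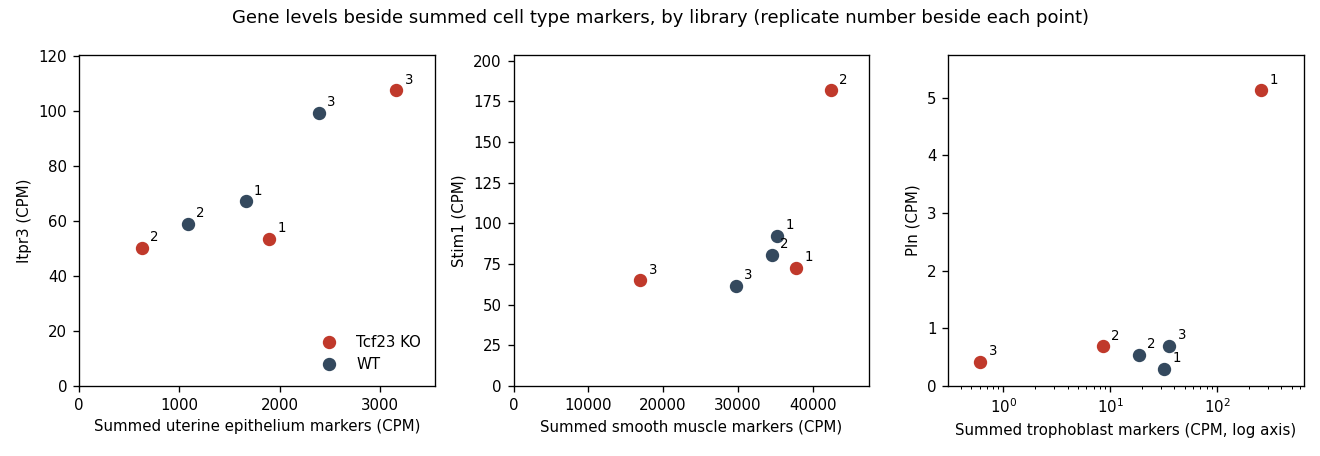
Itpr3, Stim1 and Pln (vertical axes, CPM) beside the summed markers of uterine epithelium, smooth muscle and trophoblast (horizontal axes, CPM, the last on a log axis), 1 point per library with its replicate number. KO replicate 3 and WT replicate 3 are highest on both axes of the Itpr3 panel, KO replicate 2 is highest on both axes of the Stim1 panel, and KO replicate 1 on both axes of the Pln panel.

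Both ryanodine receptor genes had negative log2 changes that did not pass. Ryr3, the subtype most often reported in myometrium (ENSMUSG00000057378, chr2:112631355-113217087, minus strand), had 25.9, 69.2 and 20.2 CPM in KO replicates 1, 2 and 3. WT replicates 1, 2 and 3 had 43.1, 55.9 and 60.5 CPM. KO replicates 1 and 3 were below all WT libraries, and KO replicate 2 was above them all. The log2 change was −0.47 ± 0.44 SE (95% interval −1.49 to 0.55, edgeR adjusted p = 0.876). Without KO replicate 2 it was −1.20, a fold of 0.435 in place of 0.723, and still not past the threshold (edgeR adjusted p = 0.132). Without KO replicate 1 it was −0.24 and without KO replicate 3 it was −0.16, folds of 0.844 and 0.893. The antisense gene Aven shares 916 exon bases with Ryr3 and had 20.3% of its counts, with 12.2, 8.19 and 7.39 CPM in KO replicates 1, 2 and 3 and 8.71 to 10.4 CPM in WT.

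Ryr2, the heart-type receptor (ENSMUSG00000021313, chr13:11553102-12106945, minus strand), was detected at a low level. It had 1.66, 1.44 and 1.07 CPM in KO replicates 1, 2 and 3 and 3.97, 1.81 and 1.57 CPM in WT replicates 1, 2 and 3. The groups overlapped only through KO replicate 1 and WT replicate 3. The log2 change of −0.81 ± 0.40 SE (95% interval −1.74 to 0.13, edgeR adjusted p = 0.655) was −0.27 without WT replicate 1. With the replicate number as a block it was −0.72, with an unadjusted p of 0.0431 and an adjusted p of 0.454 in edgeR. Per kilobase, Ryr3 made up 95.3% of ryanodine receptor transcripts, Ryr2 2.63% and Ryr1, the skeletal muscle subtype, 2.07%; Ryr1 is given to complete the family, after its values were seen.

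The entry genes differed in how even they were. Stim1 (ENSMUSG00000030987, chr7:102267806-102437319, plus strand) had 72.6, 182 and 64.9 CPM in KO replicates 1, 2 and 3 and 92.2, 80.6 and 61.7 CPM in WT replicates 1, 2 and 3. KO replicate 2 had more than any other library, and the other KO values lay within the WT range. The log2 change was 0.45 ± 0.39 SE (95% interval −0.48 to 1.37, edgeR adjusted p = 0.864), and −0.18 without KO replicate 2. That library also had the highest smooth muscle sum (42463 CPM), the highest endothelial sum (689 CPM, against 354 to 590 CPM in the other 5) and the lowest epithelial sum (627 CPM). Their part in the Stim1 value was not tested.

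Orai1 (ENSMUSG00000049686, chr5:123015074-123030456, plus strand) had 26.2, 20.4 and 21.9 CPM in KO replicates 1, 2 and 3 and 22.7, 18.3 and 21.3 CPM in WT replicates 1, 2 and 3. After Atp2a2 it had the narrowest interval of the 10 genes, with a log2 change of 0.14 ± 0.15 SE (95% interval −0.21 to 0.49, edgeR adjusted p = 0.9). Both genes lie on chromosome 5, 0.513 Mb apart. The log2 ratio of Orai1 to Stim1, channel to sensor, was −1.47, −3.15 and −1.57 in KO replicates 1, 2 and 3 and −2.02, −2.14 and −1.53 in WT replicates 1, 2 and 3 (difference −0.17, exact permutation p = 0.9). The difference was 0.38 without KO replicate 2 and 0.017 without WT replicate 3. The paralogs lay on both sides of these levels. Stim2 had 8.10 ± 0.957 CPM per kilobase in KO and 7.51 ± 0.438 in WT, and Orai3 18.2 ± 2.84 in KO and 17.8 ± 1.74 in WT (mean ± SD, n = 3 each), so Orai3 made up 59.6% of ORAI transcripts per kilobase and Orai1 31.5%. Orai2 averaged 2.68 CPM per kilobase over the 6 libraries, or 8.89% of ORAI transcripts, below Orai1; Stim2 and Orai3 were chosen after their values were seen.

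Most of the 10 genes spread more widely in KO than in WT, as did most genes in these libraries. For 8 of the 10 the highest value over the lowest was greater in KO than in WT, the exceptions being Atp2a2 and Ryr2. Over 15030 genes with a mean of at least 1 CPM and counts in every library this held for 79.2%, so 8 of 10 is near the background. In fold the KO range was 12.4 for Pln, 3.43 for Ryr3, 2.80 for Stim1 and 1.28 for Orai1, against 2.32, 1.40, 1.50 and 1.24 in WT. The medians of all genes with a mean of at least 1 CPM were 1.45 in KO and 1.20 in WT. In KO only Atp2a2 and Orai1 lay below that median, and in WT only Atp2a2, Atp2a3 and Itpr1. In size, then, the spread of most of the 10 genes was above the median. Divided by the smooth muscle marker sum of their library, all 10 genes had overlapping groups, with exact permutation p of 0.2 to 1. The lowest p was that of Atp2a3 (log2 difference 0.38) and Pln (1.37). With single libraries left out, up to 4 genes did not overlap (1, 3 and 4 genes without KO replicates 1, 2 and 3, 2 genes without WT replicate 3), in groups that are then smaller. Smaller groups separate more readily, and no share over all genes was computed for these ratios. No conclusion is drawn from these counts.

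Outside the 10 genes, a wider set of 91 calcium handling genes in 7 lists also had no call. Of these, 84 were tested, 55 with positive and 29 with negative log2 changes (median 0.05), and 0 passed edgeR's adjusted threshold. At an unadjusted p under 0.05, 3 were higher and 4 lower, where all genes gave 5.27% higher and 3.29% lower. Groups did not overlap for 9 of the 84, with KO above WT for 2 and below for 7 (7.22% and 7.01% of all genes). Genes with too few counts were Sln, Strit1, Ppp1r1a, Itpka, Jph3, Atp2b3 and Slc24a2.

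**Figure D5:**
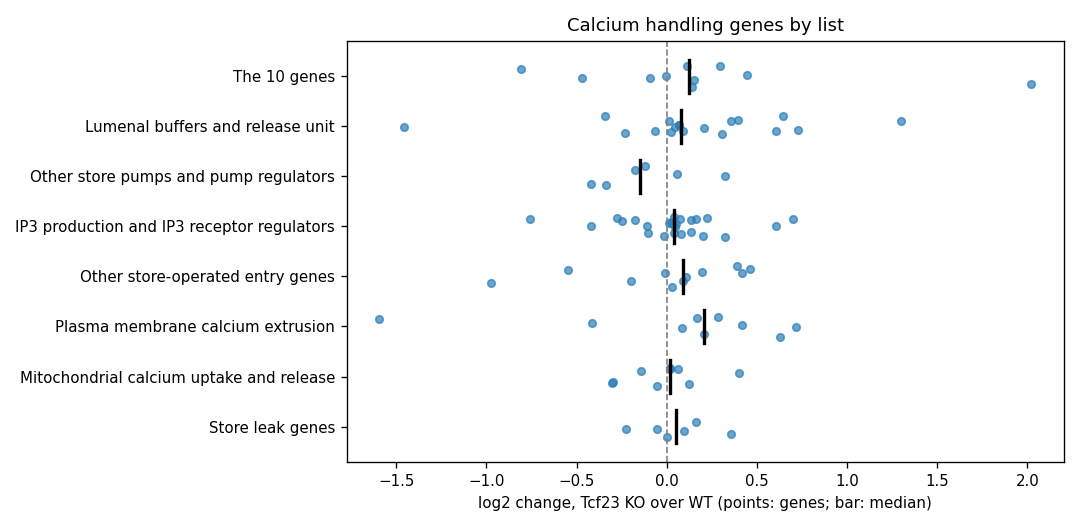
Log2 change, KO over WT, of each tested gene (points) in the set of 10 genes and in 7 lists of other calcium handling genes, with the median of each list as a bar. Medians lie between −0.15 and 0.21, and no gene shown passed the adjusted threshold.

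On the release side, the lumenal buffers and release-unit partners had 14 positive and 4 negative log2 changes (median 0.08). Homer1, a scaffold that binds IP3 receptors, had 28.7, 36.5 and 28.9 CPM in KO replicates 1, 2 and 3 and 39.4 to 39.9 CPM in WT, so its groups did not overlap (log2 −0.34 ± 0.13 SE, edgeR adjusted p = 0.542). Its paralog Homer2 had 6.64, 8.44 and 11.2 CPM in KO replicates 1, 2 and 3 and 3.92, 5.26 and 7.62 CPM in WT replicates 1, 2 and 3, with overlapping groups but each KO library above the WT library of the same number. Its log2 change was 0.64 ± 0.30 SE (unadjusted p = 0.0662, edgeR adjusted p = 0.618), and with the replicate number as a block 0.67 ± 0.17 SE (unadjusted p = 0.0073, edgeR adjusted p = 0.267). In that block fit 2051 of all 19599 genes had an unadjusted p under 0.05. Trdn, which encodes triadin of the ryanodine receptor complex, had 18.2, 2.42 and 4.24 CPM in KO replicates 1, 2 and 3 and 33.6, 24.0 and 11.1 CPM in WT replicates 1, 2 and 3 (log2 −1.46 ± 0.74 SE, edgeR adjusted p = 0.67). Without KO replicate 1 the log2 change was −2.78 (edgeR adjusted p = 0.201). With the replicate number as a block it was −1.82 (unadjusted p = 0.00836, edgeR adjusted p = 0.277). Each KO library was below the WT library with the same number, and KO replicate 1 was above WT replicate 3. The labels give no reason for pairing, and the share of all genes with such a same-number order was not computed. No conclusion is drawn from that order for Homer2 or Trdn. Jsrp1, another protein of the junctional store membrane, had 2.10, 0.757 and 0.658 CPM in KO and 0.600, 0.482 and 0.357 CPM in WT (log2 1.30 ± 0.50 SE, edgeR adjusted p = 0.531). Its KO replicate 1 was the highest, and without it the log2 change was 0.58.

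Among 25 tested genes for IP3 production and control of its receptors, 17 were positive and 8 negative (median 0.04). Mrvi1 encodes IRAG, through which cyclic GMP signalling restrains IP3 receptors. It had 285, 303 and 152 CPM in KO replicates 1, 2 and 3 and 430.4, 447 and 376 CPM in WT replicates 1, 2 and 3, with every KO library below every WT library. Its log2 change of −0.76 ± 0.26 SE missed the threshold (unadjusted p = 0.022, edgeR adjusted p = 0.467). With the replicate number as a block it was −0.82 (unadjusted p = 0.00665, edgeR adjusted p = 0.256). The phospholipase C genes Plcb2, Plcd4 and Plce1 had log2 changes of 0.61, 0.70 and −0.42, with adjusted p of 0.554, 0.646 and 0.761 in edgeR.

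Genes that accompany STIM and ORAI were positive in 7 and negative in 4 of 11. Tmem178, reported to restrain store-operated entry in mouse osteoclasts, had 5.10, 2.87 and 6.32 CPM in KO and 7.44, 6.78 and 13.8 CPM in WT, without overlap (log2 −0.97 ± 0.37 SE, edgeR adjusted p = 0.529). With the replicate number as a block its log2 change was −0.97 (unadjusted p = 0.00358, edgeR adjusted p = 0.219). Orai2 had 14.3 to 16.5 CPM in KO and 16.9 to 18.0 CPM in WT, also without overlap (log2 −0.20 ± 0.13 SE, edgeR adjusted p = 0.764). The tethers of store and plasma membrane Esyt2 and Esyt1 had log2 changes of −0.55 ± 0.27 SE and 0.42 ± 0.22 SE, both with overlapping groups.

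Calcium removal and the other store genes gave the same count of 0 calls. Slc24a4, a sodium and potassium dependent calcium exchanger, had 1.04, 0.649 and 0.219 CPM in KO and 1.46, 2.35 and 2.07 CPM in WT (log2 −1.59 ± 0.50 SE, edgeR adjusted p = 0.414), the smallest unadjusted p of the 84 genes at 0.0146. In DESeq2 the adjusted p of Slc24a4 was 0.055, near the threshold but also not past it. Atp2b1, a plasma membrane calcium pump, averaged 190 ± 44.5 CPM in KO and 164 ± 13.8 CPM in WT. Mitochondrial genes were positive in 5 and negative in 4 of 9, with Mcub, a dampening subunit of the uniporter, at 22.4 to 30.2 CPM in KO and 18.4 to 23.6 CPM in WT (log2 0.40 ± 0.16 SE, edgeR adjusted p = 0.554). The store pump genes Atp2a1 and Atp2c1 had log2 changes of −0.42 and −0.12, and Atp2c2 of 0.32. Of the 6 leak genes 3 were positive and 3 negative, led by Grina at 158 ± 26.2 CPM in KO and 124 ± 8.44 CPM in WT (edgeR adjusted p = 0.604).

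For the 2 genes with the highest levels per kilobase, the genes with the most alike course over the 6 libraries were looked up among 10156 with a mean of at least 10 CPM. For Atp2a2 they were Polr3a (Pearson's r = 0.97), Etnppl (0.96) and Brf1 (0.96). For Orai1 they were Cyth2 (0.97), Psme1 (0.97) and Zbp1 (0.96). With 6 points that share library and depth and 10156 candidates, such values are a description and carry no p.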

How the data were processed

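Tcf23 KO and WT myometrium was compared in 3 animals each, from poly(A)-selected, directional libraries, per the labels' protocols. The authors deposited raw counts per gene for each library. Tools listed in the submitters' processing notes, with no role or order, are HISAT2 2.2.1, HTSeq 0.9.1, DESeq2 2.11.40.7 and FastQC 0.73, and the build is mm10; the annotation release and strand setting are not stated. The deposited normalized table is a signal equal to raw counts times 1 constant per library (0.804 to 1.26), and gave symbols and positions, printed counting from 1.

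edgeR 4.0.16, run in R 4.3.3, tested the counts (filterByExpr, TMM, quasi-likelihood fit on genotype, Benjamini-Hochberg adjusted p under 0.05 over 19599 genes). SE and 95% intervals come from that fit, whose code was tested on simulated data. DESeq2 1.42.0 and limma 3.58.1 served as alternatives, with other scalings and filters, a replicate block and each library left out. CPM are relative to TMM-scaled library sizes. Merged exon lengths come from GENCODE M21, in which 7 of the 10 genes have the deposited coordinates. Ratios were tested by exact permutation over samples.

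The 10 genes, gene lists and marker lists were chosen with earlier results of these data known. The text names the 10 genes, Tcf23, from each pathway list the up to 4 genes with the smallest p, and the 3 genes most alike to each of the 2 highest members, on log2 of CPM plus 1. Titles number the replicates alike in both genotypes. Same-numbered libraries deviated together (r = 0.147, 0.196 and 0.217 across genes, against −0.223 to 0.0611 for others). On this check of the data alone, the numbers were used as pairs in the alternatives with a replicate block. The main fit used genotype alone, and the exact tests printed here were unpaired. With 3 per genotype, exact tests cannot go below p = 0.1.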

Additional observations from a re-analysis of the deposited data

How the results depend on the processing

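Among the 10 genes and the 84 pathway genes that passed each filter, 0 were called under any of the 14 alternatives run, which included DESeq2, limma-voom and each library left out; requiring CPM of at least 1 in 3 libraries left out Pln and, of the named pathway genes, Jsrp1, Plcd4, Atp2a1 and Slc8a3. With the replicate number as a block, edgeR called 7 genes in all in place of 4; the count was 12 with upper-quartile scaling, 81 without a filter, 380 with DESeq2 and 1 (without WT replicate 1 or 2) to 7 (without KO replicate 3) with 1 library left out. The causes were not tested. The block changed no call of a gene named here. Of 541 values over 39 named genes, 527 kept their direction and side of the threshold. Atp2a2 turned sign with upper-quartile scaling (0.028) and with CPM of at least 1 in 3 libraries (0.0063). With 1 library left out, log2 changes ran from −0.042 to 0.052 for Atp2a2, −0.15 to 0.35 for Itpr1, −0.24 to 0.35 for Itpr2, −0.54 to 0.16 for Itpr3, −0.18 to 0.70 for Stim1, −0.13 to 0.79 for Atp2c2, −0.075 to 1.00 for Atp2b2 and −0.019 to 0.25 for Tmbim4. The Orai1 to Stim1 difference ran from −0.46 to 0.38 and the Itpr1 share from −3.78 to 6.51 percentage points. Relative to smooth muscle markers, differences ran from −0.28 to 0.34 for Atp2a2, −0.27 to 0.64 for Itpr1, −0.49 to 0.62 for Itpr2, −0.78 to 0.43 for Itpr3 and −0.12 to 0.60 for Orai1. Groups did not overlap for 0 to 4 genes, with no share over all genes computed. Itpr3 relative to Myh11 alone was 0.051. Pln had 14 to 39 counts in 5 of 6 libraries.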
